A study of Mus musculus with 6 samples.

Results

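The 9 genes *Otx2*, *Prdm1*, *Prdm8*, *Bhlhe23*, *Bhlhe22*, *Fezf2*, *Vsx1*, *Irx5*, and *Irx6* encode transcription factors (TFs) without a LIM domain that are known for the fate or the subtype identity of retinal bipolar cells (BCs). They were chosen by this role, with earlier results of these data known, and were matched by gene symbol. All 9 were found among the 21744 genes of the deposited P7 table.

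BCs are the interneurons that carry signals from photoreceptors to amacrine and ganglion cells, and they comprise rod BCs (RBCs), ON cone BCs, and OFF cone BCs. OTX2 starts the photoreceptor and BC lineages in newborn cells, and PRDM1 keeps part of those cells on the photoreceptor side by holding BC genes down. Later acting factors of the basic helix-loop-helix (bHLH), PR domain, homeodomain, and zinc finger families then set the properties of RBCs and of the cone BC subtypes, and LHX4 is a LIM-homeodomain factor of developing BCs.

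The data were RNA-seq profiles of whole retina at postnatal day 7 (P7) from 3 control mice and 3 mice labelled *Lhx4* null, with 1 library per mouse. All mice were on a background described as C57BL/6J; 129S6 mixed. In other experiments of the study the *Lhx4* null genotype is *Lhx4* tdT/loxP with *Six3-Cre*, which combines a tdTomato knockin allele with a floxed allele that Cre removes in the developing retina. For the sequenced mice the alleles are not spelled out. The labels call the other mice only control; elsewhere in the study controls were wild type or *Lhx4* loxP/+ mice, or carriers of the tdT allele without Cre, and which of these were sequenced is not given in the sources used here. The retinal pigment epithelium (RPE) was removed at dissection, no batch is named, and the sex of each mouse is not given. Because each library comes from its own mouse, the spread within a group is the spread between animals.

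Expression is given as FPKM, the fragments of a gene divided by its transcript length and by the size of the library, as deposited by the authors. From the steps between the lowest values, the relative depth of the control libraries 1, 2, and 3 was 95.7%, 76.9%, and 100% of the deepest, and that of the libraries labelled *Lhx4* null was 46.7%, 57.5%, and 65.9%. Every control library was deeper (p = 0.1 in a two-sided exact permutation test, which cannot go lower with groups of 3). This matters most for *Bhlhe23*, for which the number of fragments is given beside the values. The tissue matched its label: the rod genes *Nrl* and *Nr2e3* were at 468 ± 17 and 749 ± 35 FPKM in controls (mean ± SD, n = 3), and the ON BC receptor gene *Grm6* was at 60.5 ± 12.2 FPKM.

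*Lhx4* itself (ENSMUSG00000026468) was at 20.9, 23.8, and 19.1 FPKM in control libraries 1, 2, and 3, whereas libraries labelled *Lhx4* null had 31.2, 30.3, and 29.0 FPKM. All 3 of the latter lay above all 3 controls, which goes against the label. The log2 fold change was 0.51 (standard error 0.091), and its adjusted p of 0.098 from limma did not pass 0.05. Reads from every exon enter this gene-level value, so it cannot tell transcripts with and without a given exon apart and does not by itself show that a label is wrong. In the sample titles the second group is called *Lhx4* Mutant, and the study's term *Lhx4* null stands for it as the label throughout. Every direction below is that group minus control.

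Between these groups, *Bhlhe23* and *Fezf2* fell, *Irx6* and *Bhlhe22* were lower in all 3 libraries labelled *Lhx4* null without passing the threshold, and *Otx2*, *Prdm1*, *Prdm8*, *Vsx1*, and *Irx5* overlapped between the groups. Of the 9 genes, 2 were lower and 0 were higher at an adjusted p under 0.05 in limma, where 0.138% and 0.0855% of the 15200 genes tested were lower and higher. Because the 9 genes were chosen with earlier results of these data known, this comparison is a description and not an independent test. All 9 passed the filter on low values, and 6 had an unadjusted p under 0.05 in limma, as had 1239 of the 15200 genes tested. The libraries labelled *Lhx4* null lay wholly below the controls in 4 genes and wholly above in 0, and in 5 the groups overlapped, against 6.13% and 8.10% of all genes tested lying wholly below and wholly above. Fold changes on the log2 scale were below 0 in 5 genes and above 0 in 4, with a median of -0.23 beside 0.011 over all genes. Since whole retina was sequenced, fewer cells of a type and less RNA per cell cannot be told apart.

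**Figure D1:**
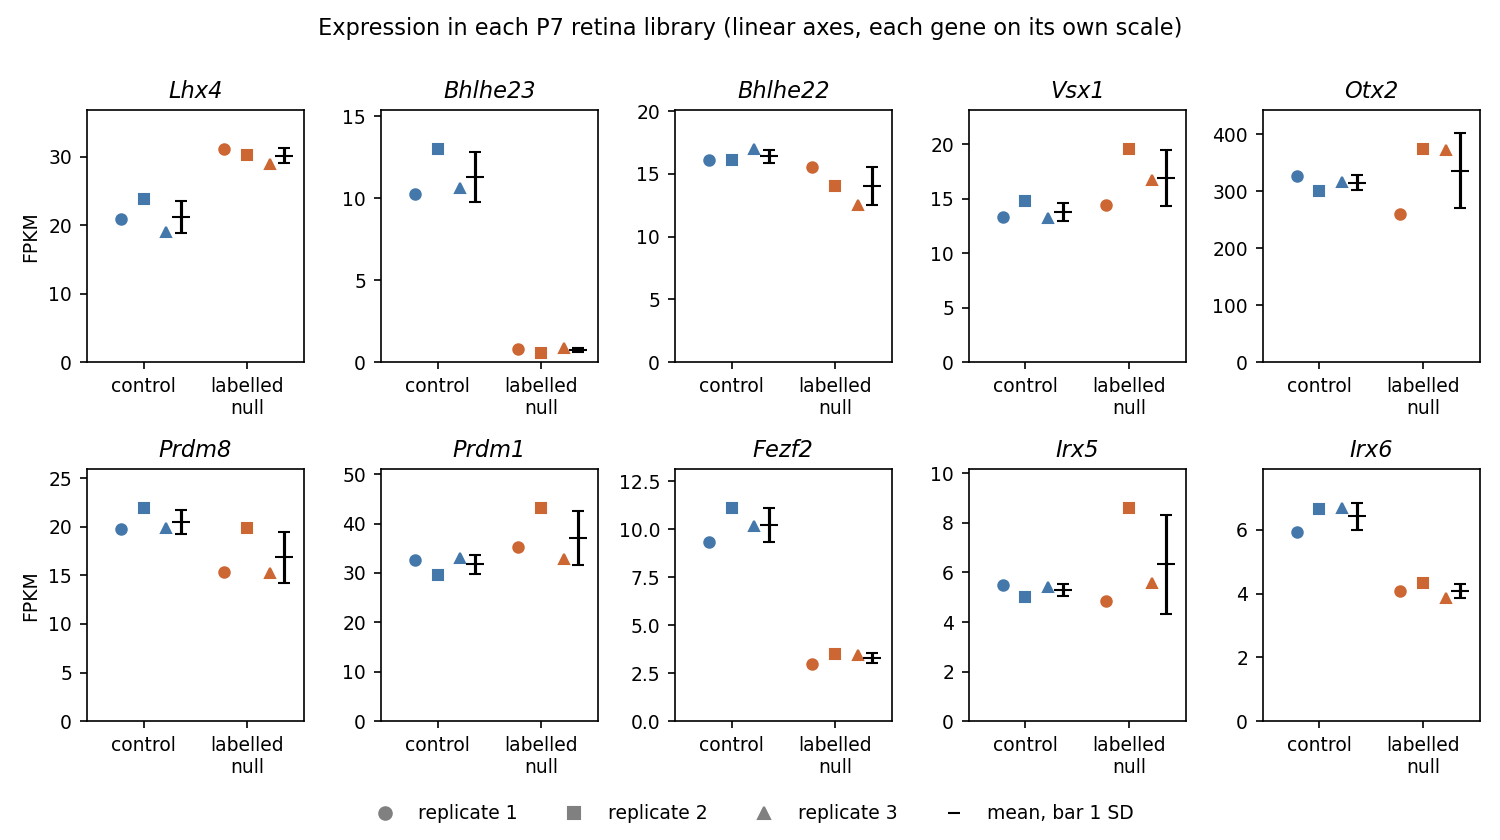
FPKM of *Lhx4* and the 9 genes in each library on linear axes from 0, with control libraries in blue, libraries labelled *Lhx4* null in orange, the replicate as the shape of the point, and the mean with 1 SD in black (n = 3). *Bhlhe23* lies at 0.563 to 0.830 FPKM in the libraries labelled *Lhx4* null against 10.2 to 13 FPKM in controls, while the 2 groups overlap for *Otx2*, *Prdm1*, *Prdm8*, *Vsx1*, and *Irx5*.

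*Otx2* (ENSMUSG00000021848), on chromosome 14 of GRCm38 from 48657677 to 48673819 on the minus strand, encodes the homeodomain factor on which both photoreceptors and BCs depend. It was at 327, 301, and 316 FPKM in control libraries and at 260, 375, and 373 FPKM in libraries labelled *Lhx4* null. The spread was wider in the second group, which held both the lowest and the highest of the 6 values. The log2 fold change of 0.074 (95% interval -0.25 to 0.40, adjusted p = 0.92 from limma) was not distinguishable from 0, and its sign turned without *Lhx4* null replicate 2 (-0.015) and also when replicate 3 of that group was left out (-0.011). Pigment epithelium also makes *Otx2*. Of 11 RPE markers, 9 were above 0 and 2 below, none passed the threshold, none was at 0 in every library, and their median was 0.70. Their summed FPKM was 50.9, 44.6, and 25.8 in controls and 54.9, 70.0, and 93.5 in libraries labelled *Lhx4* null, 50.5% of it from *Ttr*. Their part in the *Otx2* value was not tested.

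The promoter table from RefSeq (GRCm38.p6) holds windows from 250 bases before to 50 bases after a transcript start, 300 bases each, and 6 of the 9 genes have 9 such windows in it. *Bhlhe22*, *Irx5*, and *Irx6* have no entry. The letters TAATTA and TAATTG, the kind bound by LIM-homeodomain factors, TAATCC, the kind bound by OTX factors, and the E-boxes CATATG and CAGCTG were searched on both strands. Of these, TAATTA and both E-boxes read the same on either strand. Over all 32817 windows of the table, 5.30% held TAATTA, 8.0% held TAATTG, 7.06% held TAATCC, 3.92% held CATATG, and 16.3% held CAGCTG. *Otx2* has 4 windows, and the third of them, chr14:48665060-48665359 on the minus strand, held 4 of the 10 matches found in the 9 windows. It is shown with the matches in capitals, TAATTA at positions -234, -174, and -154 and TAATCC, read on the other strand as GGATTA, at -211, counted from the start of the transcript.
Otx2: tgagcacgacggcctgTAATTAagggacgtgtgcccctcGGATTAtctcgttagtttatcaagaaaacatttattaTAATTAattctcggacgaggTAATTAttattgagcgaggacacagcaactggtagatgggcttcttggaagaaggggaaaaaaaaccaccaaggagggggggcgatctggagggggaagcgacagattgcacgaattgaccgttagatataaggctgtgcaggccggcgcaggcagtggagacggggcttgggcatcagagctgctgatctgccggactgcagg
The first and the second *Otx2* window overlap in part. The other *Otx2* windows held TAATTA at -141 and TAATTG at -133 in the first, no match in the second, and TAATTG at -204 in the fourth. A match describes the letters only and does not show that a factor binds there.

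*Prdm1* (ENSMUSG00000038151), on chromosome 10 from 44437177 to 44528501, encodes the zinc finger repressor that favours photoreceptors over BCs among *Otx2*-expressing cells. Its values were 32.7, 29.6, and 33.0 FPKM in controls and 35.2, 43.2, and 32.9 FPKM in libraries labelled *Lhx4* null. The groups overlapped through replicate 3 of the second group, and replicate 2 of that group was the highest of the 6. In limma its log2 fold change was 0.22 (95% interval -0.029 to 0.46, adjusted p = 0.65). Its promoter window held none of the 5 motifs.

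*Bhlhe23* (ENSMUSG00000045493), a gene of a single exon on chromosome 2 from 180774381 to 180776900, encodes a bHLH factor that RBCs need to mature. It had 10.2, 13, and 10.6 FPKM in controls but 0.814, 0.563, and 0.830 FPKM in libraries labelled *Lhx4* null, a mean of 6.51% of the control mean. Taking the depth recovered from the lowest values and the 2520 exon bases, these values correspond to about 890, 909, and 964 fragments in controls and 35, 29, and 50 fragments in the other group. The lowest of these counts, 29, has an exact Poisson 95% interval of 19.4 to 41.6 fragments, which covers counting error only. A residual level was thus counted in each library labelled *Lhx4* null, with a counting error of 14.1% to 18.6%. On the log2 scale it fell by 3.78 (standard error 0.17, 95% interval -4.16 to -3.39, adjusted p = 1.713e-04 from limma), lower in 3 of 3 libraries, and *Bhlhe23* was the gene with the lowest p of all tested. Of the exon bases, 5.71% are shared with *Gm14343*, a transcript on the same strand that has no row in the table.

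The promoter window of *Bhlhe23* is shown because this gene moved most of the 9. It lies at chr2:180776851-180777150 on the minus strand, 61.7% of it is G or C against a median of 52.7% over all windows, and none of the 5 motifs occurs in it. The capitals mark the 50 transcribed bases.
Bhlhe23: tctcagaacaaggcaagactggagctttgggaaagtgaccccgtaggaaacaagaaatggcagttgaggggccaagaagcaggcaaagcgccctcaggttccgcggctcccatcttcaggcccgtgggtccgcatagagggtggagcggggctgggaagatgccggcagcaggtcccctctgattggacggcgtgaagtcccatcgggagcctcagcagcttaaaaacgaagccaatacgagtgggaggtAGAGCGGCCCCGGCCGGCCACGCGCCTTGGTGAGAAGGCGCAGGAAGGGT

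*Prdm8* (ENSMUSG00000035456), on chromosome 5 from 98167198 to 98188991, encodes a PR domain factor required for RBCs and for type 2 OFF cone BCs. It was measured at 19.8, 22.0, and 19.9 FPKM in controls and at 15.3, 19.9, and 15.3 FPKM in libraries labelled *Lhx4* null. Replicate 2 of the second group, at 19.9 FPKM, reached into the control range, and the other libraries of that group lay below it. Its log2 fold change of -0.29 (95% interval -0.55 to -0.032) did not pass, with an adjusted p of 0.59 from limma. Of its exon bases, 29.1% are shared with *A730035I17Rik* on the opposite strand, which has no row in the table, and since no source says whether counting was stranded, reads of these genes cannot be told apart there. Its window held CAGCTG at -217.

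*Bhlhe22* (ENSMUSG00000025128), on chromosome 3 from 18054174 to 18057517, is the bHLH relative of *Bhlhe23* and is needed for type 2 OFF cone BCs and some amacrine cells. Its FPKM was 16.1, 16.1, and 17.0 in controls and 15.5, 14.0, and 12.5 in libraries labelled *Lhx4* null. The groups did not overlap, but the nearest values, 15.5 and 16.1 FPKM, were close. The log2 fold change of -0.23 (95% interval -0.44 to -0.018) did not pass the threshold (adjusted p = 0.60 from limma).

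Within each library the ratio of *Bhlhe23* to *Bhlhe22* sets the bHLH relatives against each other on the same depth and scaling. The log2 ratio was -0.65, -0.31, and -0.67 in controls and -4.10, -4.41, and -3.76 in libraries labelled *Lhx4* null. The means differed by -3.55, close to the fold change of *Bhlhe23* itself. No overlap was seen between groups, for which the exact permutation test gives a two-sided p of 0.1, its smallest, and 0.13 after Benjamini-Hochberg adjustment over the 13 ratios computed, of which 4 are given here.

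*Fezf2* (ENSMUSG00000021743), on chromosome 14 from 12342094 to 12348189, encodes a zinc finger factor that marks several OFF cone BC types. It was at 9.37, 11.1, and 10.2 FPKM in controls and at 3.00, 3.49, and 3.43 FPKM in libraries labelled *Lhx4* null. The values of each group lay close together, and the gap between the groups was wider than the range within either. On average 32.4% of the control level was left, and the log2 fold change was -1.60 (standard error 0.11, 95% interval -1.85 to -1.35, adjusted p = 9.782e-04 from limma). The fewest fragments behind a value were about 154, in *Lhx4* null replicate 1, with a counting error of 8.06%. The *Fezf2* window, chr14:12345816-12346115 on the minus strand, is given for comparison with that of *Bhlhe23*, as the other gene past the threshold. G and C made up 61.3% of this window, which held none of the 5 motifs. The window of *Prdm1*, a gene not called, also held none and was 59.7% G or C. The capitals again mark the 50 transcribed bases.
Fezf2: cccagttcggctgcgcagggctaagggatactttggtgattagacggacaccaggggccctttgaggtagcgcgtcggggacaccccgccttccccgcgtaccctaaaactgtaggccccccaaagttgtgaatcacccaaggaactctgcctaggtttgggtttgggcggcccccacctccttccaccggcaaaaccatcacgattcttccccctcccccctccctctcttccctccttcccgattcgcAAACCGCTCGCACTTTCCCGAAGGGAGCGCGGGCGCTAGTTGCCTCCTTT

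*Vsx1* (ENSMUSG00000033080), on chromosome 2 from 150680702 to 150689360, encodes a homeodomain factor of late differentiation in OFF cone BCs. It was at 13.4, 14.8, and 13.2 FPKM in controls and at 14.4, 19.6, and 16.7 FPKM in libraries labelled *Lhx4* null. Replicate 1 of the second group lay within the control range, and the others lay above it. Over controls the log2 difference of 0.28 (95% interval 0.019 to 0.55) did not pass over all genes tested (adjusted p = 0.60 from limma). Its promoter window held CAGCTG at -79 and -44.

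The Iroquois homeodomain genes *Irx5* and *Irx6* are neighbours on chromosome 8, at 92357625 to 92376286 and 92674288 to 92680956, 298001 bases apart on the same strand. *Irx5* acts in type 2 and type 3 OFF cone BCs, and *Irx6* in type 3a cells. *Irx5* (ENSMUSG00000031737) had 5.48, 5.0, and 5.39 FPKM in controls and 4.84, 8.61, and 5.56 FPKM in libraries labelled *Lhx4* null. Replicate 2 of the second group stood apart from the other 5 libraries, and without it the log2 fold change went from 0.21 (95% interval -0.23 to 0.66, adjusted p = 0.80 from limma) to -0.027. *Irx6* (ENSMUSG00000031738) had 5.94, 6.64, and 6.69 FPKM in controls and 4.07, 4.32, and 3.87 FPKM in the others. All 3 libraries labelled *Lhx4* null were below all 3 controls, at 63.6% of the control mean. The log2 fold change was -0.64 (standard error 0.10, 95% interval -0.87 to -0.41), and *Irx6* was 44 in rank by p, just outside the 34 genes called (adjusted p = 0.066 from limma, 0.051 to 0.32 over 14 alternative settings). Of its exon bases, 4.51% are shared with the antisense gene *Gm45505*.

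The log2 ratio of the neighbours, *Irx6* to *Irx5*, was 0.11, 0.40, and 0.31 in controls and -0.24, -0.98, and -0.51 in libraries labelled *Lhx4* null, so that *Irx6* was the higher of the pair in every control and the lower in every library of the other group. The mean difference was -0.85 (exact permutation test, p = 0.1, adjusted over the 13 ratios 0.13), and it lay between -1.02 and -0.65 over the alternative pseudocounts and with each library left out.

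**Figure D2:**
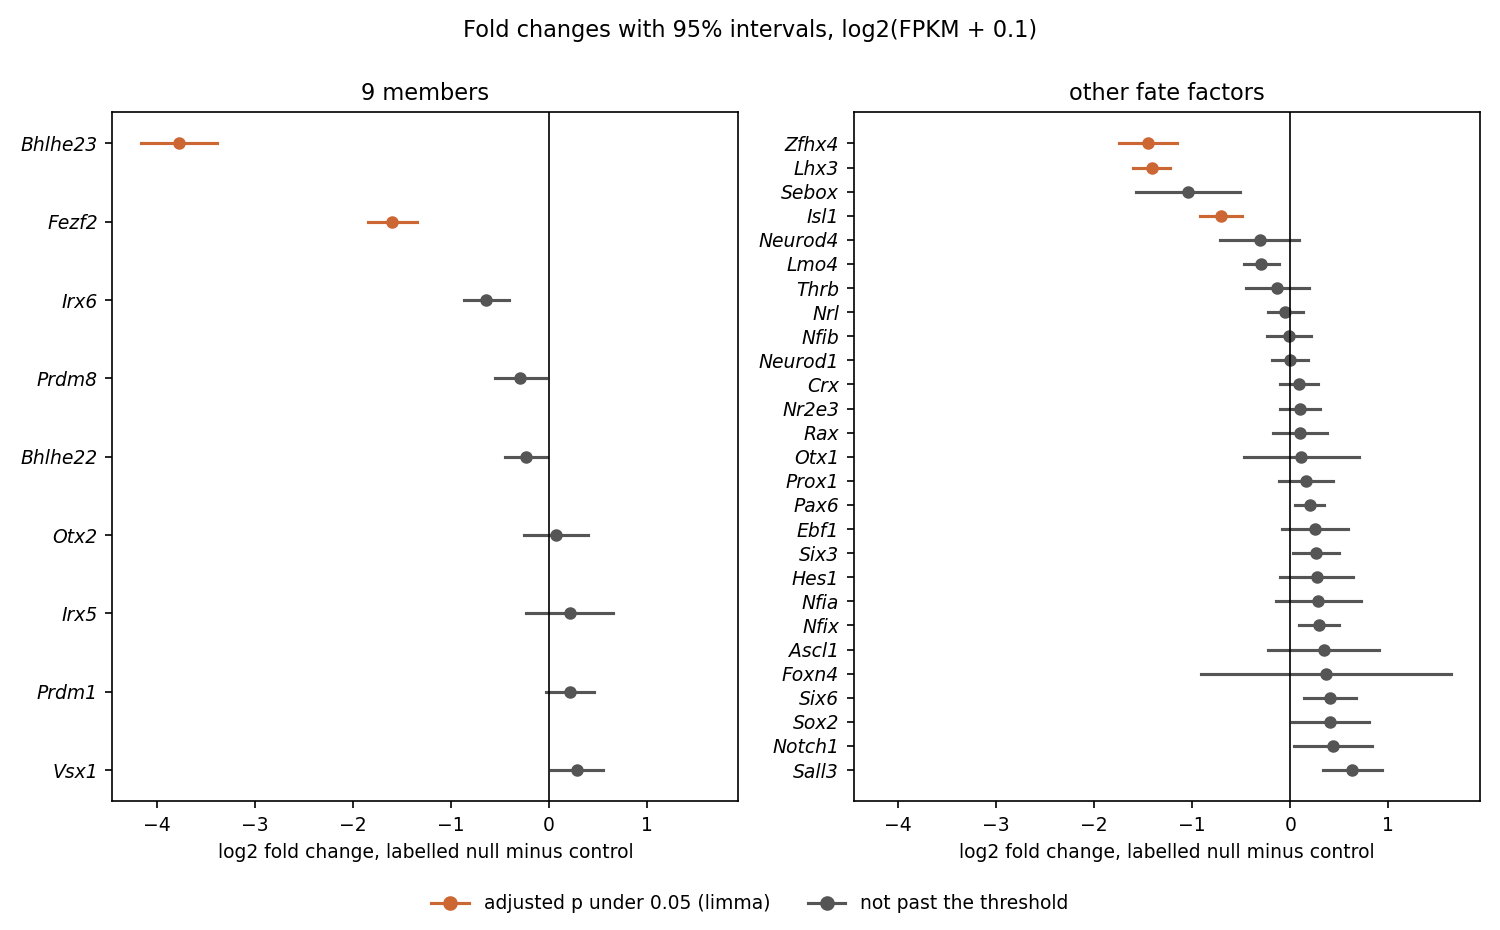
Log2 fold change of log2(FPKM + 0.1), libraries labelled *Lhx4* null minus control, with its 95% interval from limma (n = 3 per group), for the 9 genes on the left and other fate factors on the right, orange where the adjusted p was under 0.05. *Bhlhe23* (-3.78) and *Fezf2* (-1.60) are the called genes on the left, and *Zfhx4* (-1.45), *Lhx3* (-1.41), and *Isl1* (-0.70) on the right.

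Compared per kilobase in control libraries, the levels ran from *Otx2* at 315 ± 13 FPKM (mean ± SD, n = 3) through *Prdm1* at 31.7 ± 1.9, *Prdm8* at 20.5 ± 1.2, *Bhlhe22* at 16.4 ± 0.51, *Vsx1* at 13.8 ± 0.86, *Bhlhe23* at 11.3 ± 1.5, *Fezf2* at 10.2 ± 0.88, and *Irx6* at 6.42 ± 0.42 down to *Irx5* at 5.29 ± 0.25 FPKM. Of the neighbours in this order, only *Bhlhe23* and *Fezf2* overlapped in their control values. In libraries labelled *Lhx4* null *Otx2* and *Prdm1* again led at 336 ± 66 and 37.1 ± 5.4 FPKM, *Vsx1* (16.9 ± 2.6) and *Prdm8* (16.9 ± 2.7) were at the same mean level, and *Bhlhe23* was last at 0.736 ± 0.149 FPKM.

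The remaining ratios set *Prdm8* against *Prdm1* and *Otx2* against *Crx* in the same library. The log2 ratio of *Prdm8* to *Prdm1* was -0.72, -0.43, and -0.73 in controls and -1.19, -1.11, and -1.10 in libraries labelled *Lhx4* null, a mean difference of -0.51 without overlap (exact permutation test, p = 0.1, adjusted over the 13 ratios 0.13). *Otx2* to *Crx*, a photoreceptor homeodomain gene, differed by -0.015 between the group means, with overlap (exact permutation test, p = 1), and this difference took both signs over the alternatives (-0.12 to 0.14).

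**Figure D3:**
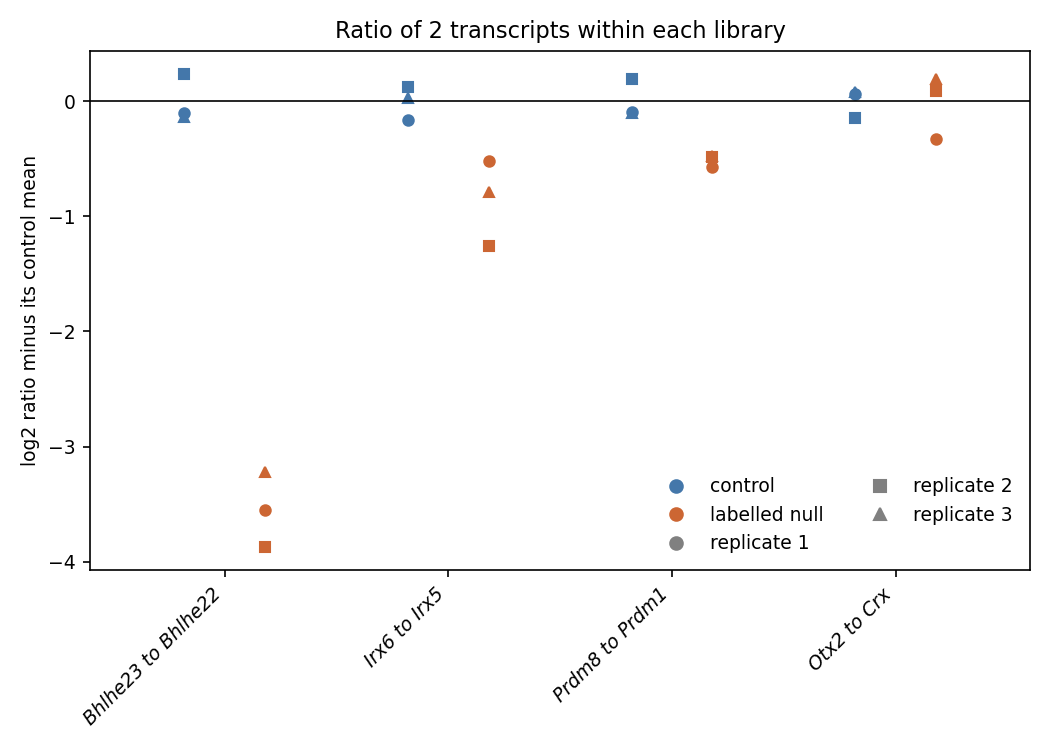
Log2 ratio of the FPKM (+ 0.1) of 2 genes within each library, as the difference from the control mean of that ratio, with control libraries in blue, libraries labelled *Lhx4* null in orange, and the replicate as the shape of the point. *Bhlhe23* to *Bhlhe22* lies more than 3 below the control mean in each library labelled *Lhx4* null, and *Otx2* to *Crx* lies on both sides of 0.

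Several of the higher values came from the same library. *Lhx4* null replicate 2 had the highest value of its group for *Prdm1*, *Prdm8*, *Vsx1*, *Otx2*, *Irx5*, *Irx6*, and *Fezf2*, though not for *Bhlhe22* or *Bhlhe23*. In this library the cycling progenitor markers also summed to the most, 138 FPKM against 76.3 and 110 in the other libraries labelled *Lhx4* null and 90.9, 72.6, and 97.2 in controls. Of these 9 markers 8 were above 0 and 1 below, none passed the threshold, the median was 0.47, and *Ccnd1* made up 40.7% of the sum. The rod markers summed to the least there, 3257 FPKM, against 4369 and 3441 in the same group and 4019, 4702, and 3983 in controls. Of the 12 rod markers 11 were below 0 and 1 above, with a median of -0.34, none passed the threshold, and *Sag* was the most abundant (21.6%). None of the markers of either list was at 0 in every library, and their part in the values of the 9 genes was not tested.

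The genes whose profiles over the 6 libraries were most like those of the called pair were found by the mean absolute difference of log2(FPKM + 0.1), each gene centred on its control mean, among 12484 genes whose mean reached 1 FPKM. For *Bhlhe23* these were *Otor* (0.47), *Gsg1* (0.68), and *Gabrr3* (0.96). For *Fezf2* they were *Lhx3* (0.13), *A730046J19Rik* (0.13), and the kainate receptor subunit gene *Grik1* (0.14). The distances were smaller for *Fezf2* than for *Bhlhe23*. Counted from the lowest log2 fold change of all genes tested, *Bhlhe23* ranked 4 and *Fezf2* 20. Few genes could therefore lie near *Bhlhe23*, and the distances do not compare the profiles apart from the size of the fall. The log2 fold changes of the *Fezf2* neighbours were -1.41, -1.39, and -1.83, and those of the *Bhlhe23* neighbours -4.04, -2.48, and -2.14. Because the profile included the difference between the groups, a fall in these neighbours follows largely from how they were chosen. All 6 had an adjusted p under 0.05 from limma, which *Otor* kept in only 7 of 14 alternative settings and the other 5 in all 14.

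Family relatives of the 9 genes had no gene past the threshold. Of 5 tested Olig and Bhlhe relatives 3 were below 0 and 2 above, with a median of -0.12, and *Olig3* was at 0 in every library. The most abundant of them, *Bhlhe41*, was at 4.86 ± 1.92 FPKM in controls and 3.65 ± 0.87 FPKM in the others. Among 5 Iroquois relatives, 2 were below 0 and 3 above (median 0.11), led by *Irx4* at 2.69 ± 0.13 and 2.92 ± 0.23 FPKM, below both *Irx5* and *Irx6* in controls. Of 13 Prdm relatives 10 were tested, 2 below 0 and 8 above (median 0.049). *Prdm13*, which acts in amacrine cells, was at 18.5 ± 1.6 and 19.6 ± 3.9 FPKM, and *Prdm10* was the only relative of that family without overlap, at 7.11 ± 0.30 and 5.65 ± 0.15 FPKM (log2 fold change -0.33, adjusted p = 0.38 from limma). *Fezf1*, the relative of *Fezf2*, was low, at 0.389 ± 0.121 and 0.300 ± 0.129 FPKM.

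Among the other BC and photoreceptor fate factors, 29 of 30 were tested, 11 below 0 and 18 above, with a median of 0.11, and 3 were called lower and 0 higher. The called genes were *Zfhx4* (8.48 ± 0.81 to 3.05 ± 0.43 FPKM), a zinc finger homeodomain gene, and the LIM-homeodomain genes *Lhx3* (15.5 ± 0.27 to 5.77 ± 0.36 FPKM) and *Isl1* (119 ± 12 to 72.8 ± 4.7 FPKM). *Zfhx4* and *Lhx3* had an adjusted p under 0.05 from limma in all 14 alternative settings, and *Isl1* in 5 of 14 and in 0 of the 6 fits with a library left out. *Sebox*, an RBC homeobox gene, was at 3.21, 6.22, and 3.68 FPKM in controls and 2.20, 1.90, and 1.86 FPKM in libraries labelled *Lhx4* null (log2 fold change -1.04, limma adjusted p = 0.21). The photoreceptor factors *Crx*, *Nrl*, *Nr2e3*, and *Neurod1* had log2 fold changes of 0.089, -0.052, 0.096, and -0.001, with overlap in each. Progenitor factors lay above 0 without passing the threshold, such as *Notch1* (15.9 ± 1.3 and 22.1 ± 6.3 FPKM), *Six6* (16 ± 1.0 and 21.3 ± 3.2 FPKM), and *Sox2* (11.4 ± 1.6 and 15.3 ± 3.3 FPKM).

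Most markers of the BC subtypes were also below 0, and a few genes, such as *Isl1* and *Sebox*, stand in more than 1 list. All 8 RBC markers were below 0 (median -0.82), and 1 was called, *Pcp2*, at 47.0, 85.9, and 36.6 FPKM in controls and 13.4, 10.1, and 11.8 FPKM in the others (adjusted p = 0.028 from limma, under 0.05 in 7 of 14 alternative settings). Of 15 OFF cone BC markers 12 were below 0 and 3 above (median -0.13), with *Grik1* and *Nxph1* called lower. Of those above, the type 3a marker *Hcn4* was at 4.87 ± 0.25 FPKM in controls and 5.38 ± 0.36 FPKM in the others. Its groups did not overlap, and it did not pass (log2 fold change 0.14, adjusted p = 0.74 from limma). The type 3b marker *Prkar2b* (-0.055) and the type 4 marker *Kcnip3* (-0.034) overlapped between the groups. Amacrine cells also make *Hcn4* and *Prkar2b*. Of 13 ON cone BC markers 11 were below 0 and 2 above (median -0.16), with *Isl1*, *Grm6*, and *Scgn* called lower. None of these called genes is particular to ON cone BCs. The paper treats *Isl1* and *Grm6* as markers of ON BCs, RBCs included, and *Scgn* as a broad cone BC marker. It likewise lists *Pcp2* for all ON BCs. Of the ON cone BC markers above 0, *Igfn1* was at 1.29 ± 0.49 FPKM in controls and 3.40 ± 0.46 FPKM in the others, without overlap. It did not pass (log2 fold change 1.38, adjusted p = 0.088 from limma). Of 5 pan-BC markers 4 were below 0 and 1 above (median -0.22), with *Samsn1* called lower, while *Gnb3*, also made in photoreceptors, was at 345 ± 6.4 and 347 ± 3.7 FPKM. *Grik1* was called in all 14 alternative settings, *Samsn1* in 11, *Grm6* in 10, *Scgn* in 6, and *Nxph1* in 4, the last in none of the fits with a library left out.

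Rod markers, as given above, were mostly below 0 (11 of 12), while those of several other cell classes were mostly above 0. These were 13 of 14 amacrine markers (median 0.12), 5 of 6 horizontal cell markers (0.15), 7 of 11 ganglion cell markers (0.11), 9 of 12 Muller glia markers (0.20), and 6 of 8 microglia markers (0.26), with none past the threshold. Of 10 cone markers 8 were above 0 (median 0.29), and *Opn1sw*, the short-wavelength opsin, was called higher at 93.6 ± 8.8 and 173 ± 25 FPKM (adjusted p = 0.031 from limma, under 0.05 in 6 of 14 alternative settings). The largest change in this list was in the other direction, that of the cone arrestin gene *Arr3* from 29.6 ± 0.74 to 12.7 ± 4.2 FPKM, without overlap and without passing (log2 fold change -1.27, adjusted p = 0.077 from limma). Only 1 of 8 vessel markers was above 0 (median -0.14), and 3 of 6 tested lens markers (median -0.20). The lens genes were low and differed more within than between the groups, with a sum of 3.30, 19.8, and 3.29 FPKM in controls and 4.35, 10.5, and 3.00 FPKM in the others. The median of none of these lists changed sign under either scaling alternative.

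**Figure D4:**
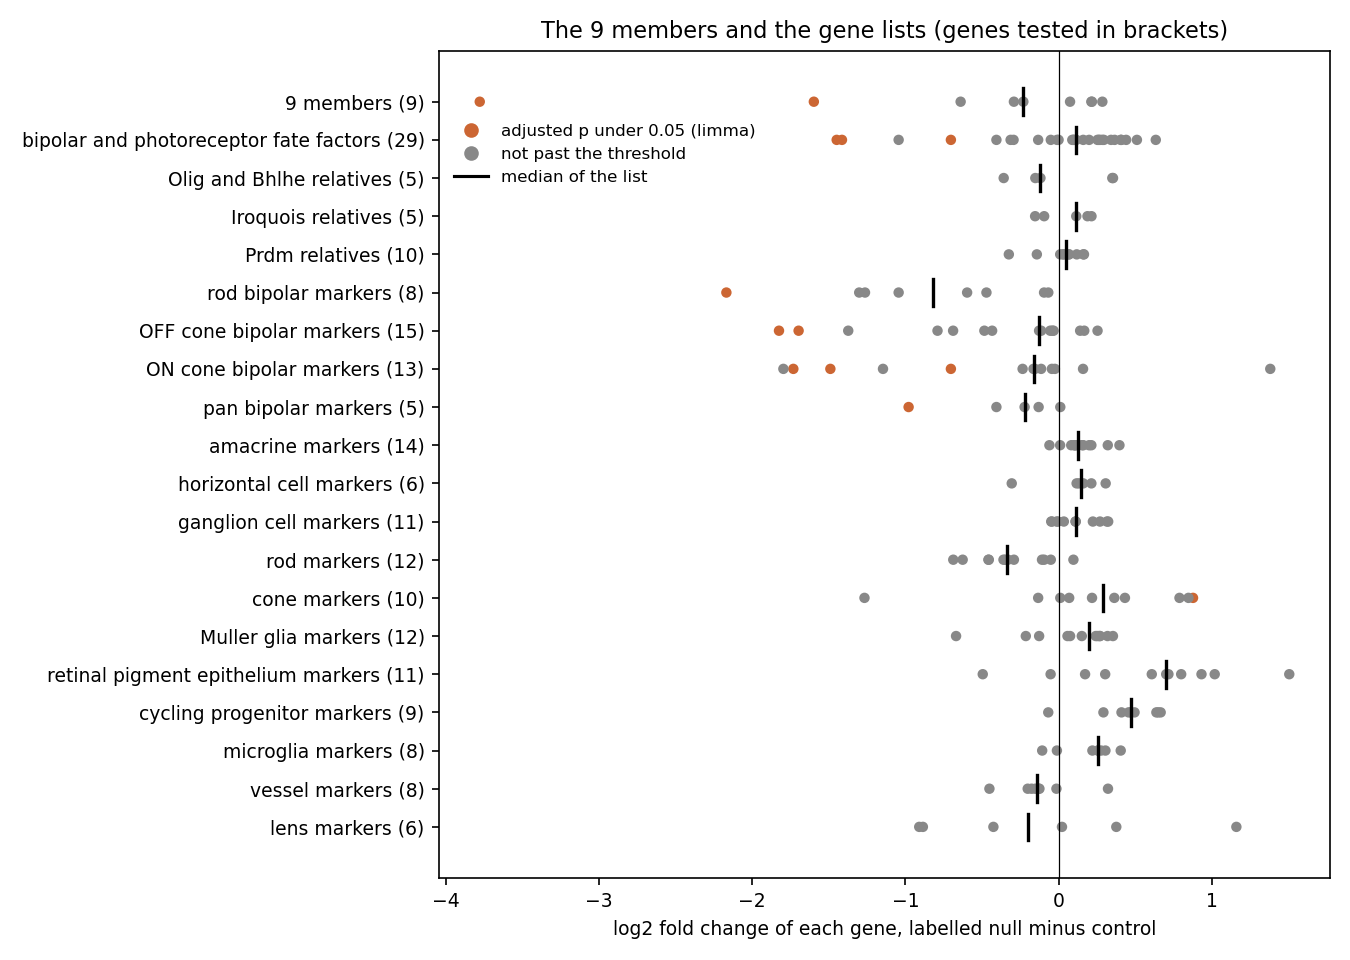
Log2 fold change of each tested gene, libraries labelled *Lhx4* null minus control, for the 9 genes and the lists given here, with the number tested in brackets, orange points where the adjusted p from limma was under 0.05, and a bar at the median. The RBC markers have the lowest median (-0.82), the RPE markers the highest (0.70), and the 9 genes lie at -0.23.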

How the data were processed

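RNA-seq libraries of P7 retina from 3 control and 3 *Lhx4* null mice were grouped by their sample labels. The submitters' processing notes name TopHat2, Cufflinks, and GRCm38, and the authors deposited 1 FPKM value per gene and library. Their annotation, program versions, and use of strand are not given in the sources used here. The members and the gene lists were chosen with earlier results of these data known.

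A linear model of log2(FPKM + 0.1) was run in limma 3.58.1 (R 4.3.3) with a mean-variance trend in eBayes and no block, on the 15200 genes whose mean over the libraries reached 0.1 FPKM, and p-values (two-sided) were adjusted by Benjamini-Hochberg over all of them. Fold changes on this scale understate those of low genes. Count models were not applied to FPKM. Ratios of 2 genes were compared by exact permutation in Python 3.11.15 (scipy 1.17.1), and plots were drawn with matplotlib 3.10.9.

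Depth was recovered from the steps of 1 fragment between low values. Fragment numbers assume the merged annotated exons as gene length. Positions come from GENCODE vM21 on GRCm38, in which 21603 of 21744 identifiers were found, and promoters from RefSeq.

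Named genes are *Lhx4*, the 9 members, the listed relatives and fate factors, up to 4 of the most abundant genes of every other list with any past the threshold, and the 3 nearest profiles of *Bhlhe23* and of *Fezf2*. *Igfn1* and *Hcn4* were added after seeing the data, for a difference opposite to most of their lists, and *Kcnip3* for a difference near 0. The fit and the depth step were each tested on drawn values with known answers. Alternatives varied the pseudocount (1 and 0.01 FPKM), the filter, the scaling, the trend, the replicate block, and the library left out. Of the genes and ratios that these rules name, some are not reported here. The overlap count under other scalings and without each library was added after seeing the data.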

Additional observations from a re-analysis of the deposited data

How the results depend on the processing

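Under all 14 alternative settings the called members were *Bhlhe23* and *Fezf2*, 2 genes each time. The log2 fold change of *Bhlhe23* ran from -3.94 to -2.82 (the latter with a pseudocount of 1 FPKM) with an adjusted p of at most 0.0074 from limma, and that of *Fezf2* from -1.66 to -1.38 with at most 0.017. *Irx6* kept its direction between -0.69 and -0.55 and did not pass in any setting. The signs of *Otx2* and *Irx5* turned as given above, and those of the other members did not. Over all genes, 34 were called, but 20 without the filter on low values, where more genes were tested, and 15 to 31 with 1 library left out: 16, 20, and 15 without control replicates 1, 2, and 3 and 31, 17, and 15 without *Lhx4* null replicates 1, 2, and 3. The 4 members without overlap were joined by *Prdm8* under both other scalings (5 genes), and leaving out a library gave 4 to 7, the 7 without *Lhx4* null replicate 1, where *Vsx1*, *Otx2*, and *Irx5* lay above all controls. Fewer samples overlap less often by construction. Of the ratios, the difference of *Bhlhe23* to *Bhlhe22* was -2.60 with a pseudocount of 1 FPKM, without a change of sign.

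The replicate block, which enters the replicate number as a term, gave 15 called genes. The labels do not say whether the numbers pair the mice. The deviations of same-numbered libraries from their group means correlated with r of -0.18, -0.047, and 0.19 across 12485 genes. Not every library correlated best with its own number. With 3 libraries per group these correlations cannot exclude a pairing.

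Depth limits *Bhlhe23* most, where the libraries labelled *Lhx4* null held 29 to 50 fragments. For the other members at least 154 fragments stood behind each value. In the libraries labelled *Lhx4* null the estimated counting error was 6.35% to 8.06% for *Fezf2* and 5.69% to 6.58% for *Irx6*, much the size of their spread between mice. With groups of 3, an adjusted p above 0.05 does not show that a gene was unchanged.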
